A study of Mus musculus with 12 samples.

Results

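The comparison described here is that of the H1.0 siRNA with the scramble siRNA in adult mouse cardiac fibroblasts that received vehicle and no TGF-β. Its 6 libraries, of 12 in the series, were chosen by the treatment labels alone: 3 with vehicle and a scramble siRNA (Veh_siScramble, here the scramble libraries) and 3 with vehicle and an siRNA against H1.0 (Veh_H1.0_siRNA, here the siRNA libraries). The other 6 received 10 ng/ml TGF-β with one or the other siRNA. All cells came from hearts of wild-type adult C57BL/6J mice of both sexes, were released with collagenase, expanded in serum with insulin, transferrin, selenium and basic FGF, and kept for 24 h in 0.1% FBS before treatment. RNA depleted of ribosomal RNA was sequenced, and the depositors gave 3 biological replicates per condition. The siRNA was 1 pool, compared with 1 scramble control, so an effect of losing H1.0 and any other effect of that pool cannot be told apart. The question was what the knockdown does to the transcriptome at rest.

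A linker histone sits on the outside of the nucleosome, against the DNA that joins it to the next one, and favours tighter folding of the fibre. H1.0, the product of H1f0, is the variant that is made outside S phase and builds up in cells that stop dividing, whereas the Hist1h1 variants are made mainly while DNA is replicated. Cardiac fibroblasts make and remodel the collagen matrix of the heart. In culture on plastic, and more so with TGF-β, they take on features of myofibroblasts: actin stress fibres, smooth muscle contractile proteins and a larger output of matrix.

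The scramble libraries held 21.2 to 24.4 M estimated counts and the siRNA libraries 21.4 to 35.5 M. Of 35523 annotated genes, 18028 reached a total of 10 counts in the 12 libraries together and entered edgeR's quasi-likelihood test, in a model that pairs libraries by replicate number (the block). A gene was called at a Benjamini-Hochberg adjusted p under 0.01. Values are normalized counts, scaled to a library of 26.9 M, and compare libraries but not genes. The libraries numbered 3 stood apart from those numbered 1 and 2 within both groups (chi-square per degree of freedom 30.5 to 45.1, against 9.41 and 14.3 between numbers 1 and 2). The summed level of the Y-linked genes was lower in the libraries numbered 1 (3269 and 3202) than in the others (4977 to 5198) of both groups. Genes that passed the test only with the block are marked with their adjusted p without it.

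H1f0 (chromosome 15, 79028450 to 79030504, + strand, GRCm38) measured 2515, 3033 and 2648 normalized counts with scramble and 980.1, 1075 and 600.5 with siRNA. The groups did not overlap, and the siRNA library numbered 3 was the lowest (log2 fold change −1.66 ± 0.16 (SE), adjusted p = 1.07e-05). H1f0 message remained detectable in all 3. The other linker histones did not move alike. Hist1h1a, which encodes H1.1, measured 338, 303 and 558 normalized counts with scramble and 142, 101 and 109 with siRNA. Hist1h1a had a log2 fold change of −1.75 ± 0.20 (SE) with an adjusted p of 3.96e-05. Hist1h1b, which encodes H1.5, measured 318, 303 and 349 normalized counts with scramble and 194, 150.3 and 139 with siRNA. For Hist1h1b the log2 fold change was −1.01 ± 0.16 (SE), with an adjusted p of 3.59e-04. Hist1h1c, which encodes H1.2, measured 2892, 3382 and 2852 normalized counts with scramble and 2266, 1959 and 1740.0 with siRNA. Hist1h1c had a log2 fold change of −0.61 ± 0.08 (SE) with an adjusted p of 1.34e-04. These 3 genes fell with no overlap between the groups. Hist1h1d (log2 fold change −0.34, adjusted p = 0.0302), H1fx (−0.33, adjusted p = 0.134) and Hist1h1e (0.28, adjusted p = 0.0132) did not pass the test, and of the 7 linker histones Hist1h1e alone had a value above 0. Per length, the mean level in the scramble libraries was 158 TPM for Hist1h1c and 104 TPM for H1f0, and in the siRNA libraries 101 TPM and 33.0 TPM. The Hist1h1 genes are short, and reads of near-identical copies may have been shared among them by the quantification.

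Across all genes tested, 3139 rose and 2915 fell, 33.6% of those tested (17.4% higher and 16.2% lower). Among changes of at least 2-fold the balance was different, with 354 genes higher (1.96%) and 1046 lower (5.80%). The median log2 fold change was 0.0031, and which direction held more calls depended on the scaling: with RLE size factors 2967 rose and 3093 fell. Without the block 2421 rose and 2024 fell. The 3 libraries of each group did not overlap for 4603 genes in which the siRNA libraries were higher (25.5%) and 4045 in which they were lower (22.4%).

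**Figure D1:**
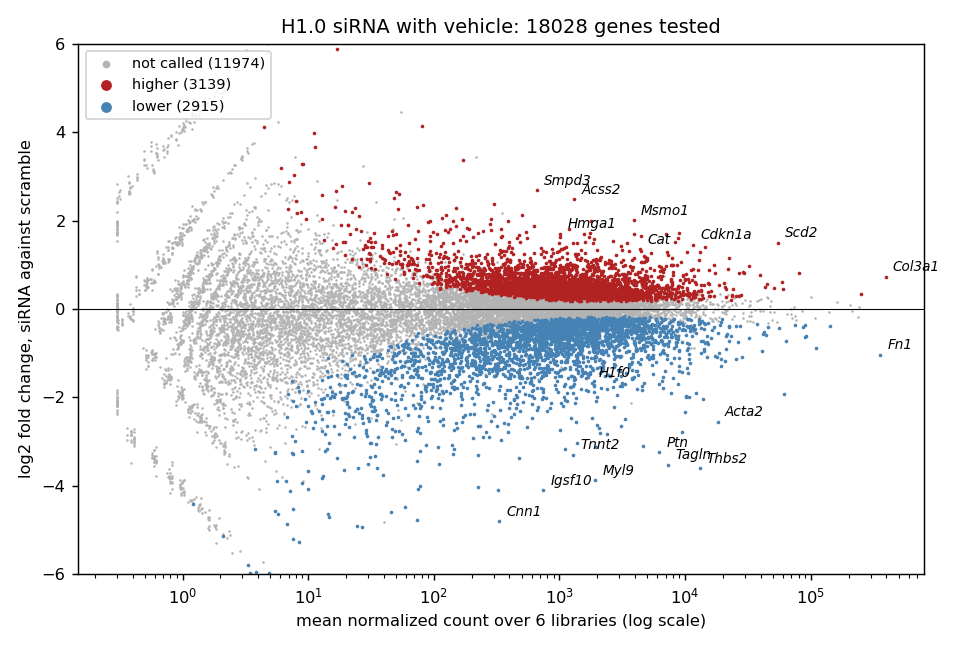
Log2 fold change of siRNA against scramble with vehicle (vertical axis) against the mean normalized count over the 6 libraries (horizontal log axis), 1 point a gene. Genes called higher are red (3139), genes called lower blue (2915) and the rest grey (11974), and the 26 genes beyond the vertical axis are not drawn. The widest labelled changes are downward, with Cnn1 at −4.80 and Tagln at −3.52, against Smpd3 at 2.68 among the labelled genes that rose.

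The 20 widest decreases were taken among genes with a mean of at least 100 normalized counts in the higher group and no overlap between the groups. They included the contractile genes Cnn1, Actg2, Myl9, Tagln and Tnnt2 and the collagens Col24a1, Col6a6 and Col9a2. Cnn1, the smooth muscle actin-binding protein calponin 1, measured 432, 949 and 527 normalized counts with scramble and 13.5, 65.1 and 2.22 with siRNA. For Cnn1 the log2 fold change was −4.80 ± 0.53 (SE), with an adjusted p of 2.97e-05. Gna14, a Gq-class G protein subunit, measured 126, 90.6 and 212 normalized counts with scramble and 2.25, 1.18 and 10.4 with siRNA. Gna14 had a log2 fold change of −4.79 ± 0.32 (SE) with an adjusted p of 1.23e-06. Igsf10 measured 1605, 1422 and 1167 normalized counts with scramble and 75.3, 94.7 and 73.2 with siRNA. For Igsf10 the log2 fold change was −4.09 ± 0.23 (SE), with an adjusted p of 4.66e-07. In each of them the highest siRNA library lay far below the lowest scramble library, though separation of the groups was a condition of the choice. Thbs2, the matricellular protein thrombospondin 2, measured 28379, 26326 and 17443 normalized counts with scramble and 1841, 2819 and 1463 with siRNA. Thbs2 had a log2 fold change of −3.60 ± 0.18 (SE) with an adjusted p of 2.89e-07. Ptn, the heparin-binding growth factor pleiotrophin, measured 13861, 12775 and 7276 normalized counts with scramble and 1155, 1314 and 992 with siRNA. For Ptn the log2 fold change was −3.24 ± 0.13 (SE), with an adjusted p of 8.24e-08. Mme, the cell-surface peptidase neprilysin, measured 779.8, 889 and 931 normalized counts with scramble and 69.7, 117 and 70.3 with siRNA. Mme had a log2 fold change of −3.37 ± 0.16 (SE) with an adjusted p of 1.86e-07. The scramble library numbered 3 held the lowest Thbs2 and Ptn and the highest Mme of its group. The other genes of the 20 widest decreases had log2 fold changes of −4.48 for Col24a1, −4.09 for Col6a6, −4.08 for Col9a2, −4.03 for Prss35, −4.00 for Actg2, −3.88 for Myl9 and −3.52 for Tagln (adjusted p of at most 3.26e-05) and of −3.51 for Sytl2, −3.45 for Fndc5, −3.30 for Tnnt2, −3.29 for Lrrc17, −3.29 for Kcnn3, −3.20 for Fbxl22 and −3.17 for Nkain3 (adjusted p of at most 1.15e-04).

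The 20 widest increases by the same rule were mostly smaller than the decreases. Smpd3, the neutral sphingomyelinase 2 that cleaves sphingomyelin to ceramide, measured 191, 139 and 198 normalized counts with scramble and 989, 843 and 1605 with siRNA. For Smpd3 the log2 fold change was 2.68 ± 0.23 (SE), with an adjusted p of 4.81e-06. Acss2, which makes acetyl-CoA from acetate in the cytosol and nucleus, measured 331, 284 and 574 normalized counts with scramble and 2219, 1857 and 2582 with siRNA. Acss2 had a log2 fold change of 2.49 ± 0.30 (SE) with an adjusted p of 5.87e-05. Msmo1 and Nsdhl of the cholesterol pathway, described with their list, were also among the 20. Tlr5, the receptor of bacterial flagellin, measured 37.0, 57.1 and 60.2 normalized counts with scramble and 229, 251 and 259.6 with siRNA. For Tlr5 the log2 fold change was 2.28 ± 0.22 (SE), with an adjusted p of 1.21e-05. Ppl, the desmosomal linker periplakin, measured 139, 139 and 278 normalized counts with scramble and 579, 623 and 1267 with siRNA. Ppl had a log2 fold change of 2.14 ± 0.28 (SE) with an adjusted p of 1.07e-04. Clec3b, which encodes the plasminogen-binding tetranectin, measured 80.6, 182 and 36.8 normalized counts with scramble and 459.7, 854 and 201 with siRNA. For Clec3b the log2 fold change was 2.38 ± 0.21 (SE), with an adjusted p of 5.96e-06, 0.0243 without the block. In both groups its count was highest in the library numbered 2 and lowest in that numbered 3. The other genes of the 20 had log2 fold changes of 2.35 for Psd2, 2.32 for Lrp2, 2.13 for Ret, 2.07 for Grap, 2.05 for Prg4 and 2.03 for Ttc12 (adjusted p of at most 6.23e-04; without the block 0.0109 for Lrp2) and of 2.00 for Tnfrsf26, 1.99 for Slc12a8, 1.99 for Gpat3, 1.97 for Hephl1, 1.93 for Tmem8 and 1.88 for Mvd (adjusted p of at most 0.00105). The widest increase by this rule was that of Adh7, a retinol and alcohol dehydrogenase, with 7.62, 84.4 and 13.5 normalized counts with scramble and 191, 221 and 511 with siRNA (log2 fold change 3.38 ± 0.69 (SE), adjusted p = 0.00203, 0.0119 without the block), where the scramble library numbered 2 held most of its group's counts and the call was lost without the scramble library numbered 1 or that numbered 3.

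**Figure D2:**
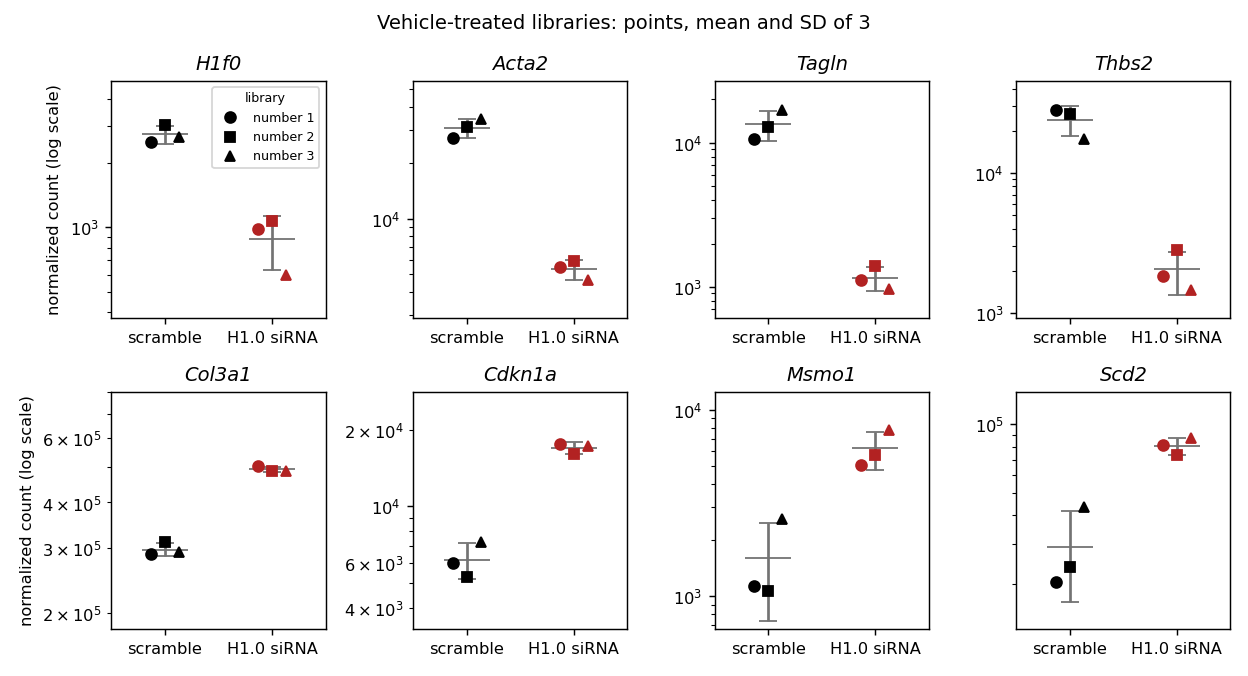
Normalized count (log axes, each panel on its own range) of 8 genes in the 3 scramble libraries (black) and the 3 siRNA libraries (red), with the symbol giving the replicate number and the grey bar the mean and SD of 3. The groups do not overlap in any panel: H1f0, Acta2, Tagln and Thbs2 are lower with the siRNA and Col3a1, Cdkn1a, Msmo1 and Scd2 higher, and the scramble library numbered 3 stands above the other scramble libraries for Msmo1 and Scd2.

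The contractile genes of smooth muscle fell together. Among the genes tested, 14 of 19 fell, 0 rose and the median log2 fold change was −1.99. Acta2 (chromosome 19, 34241090 to 34255590, − strand), the smooth muscle α-actin of stress fibres, measured 27338, 31092 and 34597 normalized counts with scramble and 5442, 5927 and 4629.9 with siRNA. Acta2 had a log2 fold change of −2.55 ± 0.11 (SE) with an adjusted p of 1.45e-07. Tagln, the actin-bundling protein SM22α, measured 10615, 12937 and 16761 normalized counts with scramble and 1108, 1400.4 and 970.2 with siRNA. For Tagln the log2 fold change was −3.52 ± 0.17 (SE), with an adjusted p of 1.80e-07. Myl9, the regulatory myosin light chain, measured 3176, 4134 and 3423 normalized counts with scramble and 212, 413 and 152 with siRNA. Myl9 had a log2 fold change of −3.88 ± 0.27 (SE) with an adjusted p of 1.33e-06. In these 3 genes the lowest scramble library lay several-fold above the highest siRNA library. Actg2, the enteric γ-actin, is scarcer here, with a mean of 8.97 TPM in the scramble libraries against 1705 TPM for Acta2, and also fell (77.3, 223 and 131 normalized counts with scramble and 5.62, 24.9 and 1.48 with siRNA). Myh11, the smooth muscle myosin heavy chain, measured 259, 942 and 171 normalized counts with scramble and 45.0, 105 and 31.1 with siRNA. For Myh11 the log2 fold change was −2.78 ± 0.27 (SE), with an adjusted p of 1.36e-05, 0.0326 without the block. Mylk, the myosin light chain kinase, measured 2062, 3414 and 960.5 normalized counts with scramble and 308, 964 and 268 with siRNA. Mylk had a log2 fold change of −2.13 ± 0.28 (SE) with an adjusted p of 1.05e-04 and one of 0.0812 without the block. For Myh11 and Mylk the libraries numbered 2 were the highest of both groups, and the change is past the threshold only when the numbers are paired.

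Promoter sequence is shown for 2 of these genes because SRF with its MRTF cofactors acts through CArG boxes and TEAD factors act through GGAATG. The 250 bases before the RefSeq start (GRCm38.p6) are given 5′ to 3′ on the gene's strand, with matches on either strand in capitals. A CArG box was searched as CC, 6 bases that are each A or T, and GG, and also with 1 of the inner bases C or G. The windows lie at chr2:156775214-156775463 (+) for Myl9, with 1 strict CArG box, 1 with an inner base changed and 0 GGAATG, and at chr19:34255374-34255623 (−) for Acta2, with 0 strict, 2 with an inner base changed and 1 GGAATG.
Myl9: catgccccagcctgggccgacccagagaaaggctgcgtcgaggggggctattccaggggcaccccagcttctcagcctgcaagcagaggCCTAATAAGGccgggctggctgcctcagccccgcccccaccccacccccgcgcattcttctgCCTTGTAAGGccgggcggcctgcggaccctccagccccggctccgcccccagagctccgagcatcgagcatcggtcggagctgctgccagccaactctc
Acta2: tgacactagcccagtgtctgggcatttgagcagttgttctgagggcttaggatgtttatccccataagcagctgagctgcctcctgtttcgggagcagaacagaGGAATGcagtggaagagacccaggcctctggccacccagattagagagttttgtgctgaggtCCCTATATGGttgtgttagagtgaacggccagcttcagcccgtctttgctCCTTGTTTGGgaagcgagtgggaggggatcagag
A strict CArG box stood in 17.6% of 17 such promoters of the contractile list and in 37.0% of 27 promoters of the SRF list, against 1.17% of the promoters of all genes tested and 1.55% of those of the genes that fell. One with an inner base changed stood in 11.8%, 14.8%, 6.81% and 5.78% of the same promoters. GGAATG stood in 35.3% of the contractile promoters and 50.0% of 24 promoters of the YAP and TEAD list. It stood in 11.1% of all and 12.8% of those of the genes that fell. The SRF list and the YAP and TEAD list were drawn as targets of these factors, so their shares say nothing on the siRNA effect. The contractile list was drawn as genes of smooth muscle, so its shares likewise describe the list and not the siRNA effect. Its strict CArG boxes were in 3 of the 17 promoters. Shares of lists count all members with a promoter, called or not. A match is a sequence description and not a binding site.

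Beyond this group the actin system was divided. Of the SRF and MRTF targets, 20 of 31 fell, 1 rose and the median log2 fold change was −0.54. Ankrd1, a stretch-induced nuclear cofactor, had a log2 fold change of −1.30 (adjusted p = 6.56e-06, 0.0258 without the block), and Cap1, the cyclase-associated actin regulator, one of 0.34 (adjusted p = 4.54e-04). Srf itself measured 937, 728 and 943 normalized counts with scramble and 626, 605 and 683 with siRNA (log2 fold change −0.44 ± 0.10 (SE), adjusted p = 0.00430, 0.0184 without the block), a call that was lost when either scramble library or either siRNA library numbered 1 or 3 was left out. Of the myosin chains, 9 of 20 fell, 1 rose and the median log2 fold change was −0.29, with Myo1d, a membrane-linked class I myosin, at 5347, 5062 and 4688 normalized counts with scramble and 1529, 1743 and 1424 with siRNA. For Myo1d the log2 fold change was −1.69 ± 0.08 (SE), with an adjusted p of 1.80e-07. The actins and actin regulators moved both ways, in that 12 of 38 fell, 12 rose and the median log2 fold change was 0.07. The formins show the division, with log2 fold changes of −2.29 for Daam2, −1.17 for Diaph3 and 0.58 for Diaph1 (adjusted p of at most 7.21e-05). Arpc1b, a subunit of the branching Arp2/3 complex, rose from 4369, 4231 and 4613 to 9117, 7829.7 and 8548 normalized counts (log2 fold change 0.95 ± 0.06 (SE), adjusted p = 9.19e-07), and the capping protein Capzb also rose (log2 fold change 0.51 ± 0.05 (SE), adjusted p = 1.68e-05). Of the focal adhesion adaptors, 13 of 28 fell, 2 rose and the median log2 fold change was −0.37 (without the block 10 fell and 1 rose), with −1.96 for Lims2, −1.13 for Tns1, −1.11 for Pxn and −1.02 for Lpp (adjusted p of at most 1.84e-05) and 0.46 for Ilk and 0.55 for Tns3 (adjusted p of at most 3.57e-04; without the block 0.0162 for Tns3). Of the integrins, 9 of 23 fell, 3 rose and the median log2 fold change was −0.12 (without the block 5 fell and 1 rose). Itgav, the αv chain that can release latent TGF-β, fell (log2 fold change −1.29 ± 0.06 (SE), adjusted p = 1.86e-07), and Itga8, the α8 chain of myofibroblasts, had a log2 fold change of −1.86 (adjusted p = 2.71e-04, 0.151 without the block). Of the YAP and TEAD targets, 12 of 26 fell, 1 rose and the median log2 fold change was −0.27 (without the block 8 fell and 0 rose). Wwtr1, which encodes the cofactor TAZ itself, measured 6681, 6569 and 6140.0 normalized counts with scramble and 1879, 1911 and 1772 with siRNA. Wwtr1 had a log2 fold change of −1.80 ± 0.07 (SE) with an adjusted p of 8.24e-08. Ccn2, the connective tissue growth factor, measured 36659.7, 38834 and 40369 normalized counts with scramble and 19289, 17027 and 18462 with siRNA. For Ccn2 the log2 fold change was −1.08 ± 0.10 (SE), with an adjusted p of 6.61e-06.

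Smooth muscle genes are also expressed by vascular mural cells, and such markers moved in the same direction. Of the mural markers, 8 of 11 fell, 0 rose and the median log2 fold change was −1.31 (without the block 3 fell and 0 rose), and their summed level was 16232 to 24604 normalized counts in the scramble libraries and 7597 to 9799 in the siRNA libraries. Pdgfrb, which fibroblasts express as well, measured 15874, 17598 and 12623 normalized counts with scramble and 6356, 7239 and 6171 with siRNA (log2 fold change −1.21 ± 0.07 (SE), adjusted p = 5.72e-07), and Rgs5, a pericyte marker, measured 416, 401 and 171 normalized counts with scramble and 174, 110.1 and 33.3 with siRNA (log2 fold change −1.73 ± 0.23 (SE), adjusted p = 9.64e-05, 0.0658 without the block), with groups that overlapped. The summed cardiomyocyte markers were 2396 to 2731 in the scramble libraries and 317 to 376 in the siRNA libraries, and most of that was Tnnt2, cardiac troponin T (2178, 2411 and 2444 normalized counts with scramble and 208, 232 and 269.9 with siRNA, log2 fold change −3.30 ± 0.12 (SE), adjusted p = 8.24e-08). In these bulk libraries fewer cells of a type and less RNA per cell cannot be told apart, and the part of mural cells in the contractile result was not tested.

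Most markers of the myofibroblast state fell. Of these, 18 of 27 fell, 2 rose and the median log2 fold change was −0.78 (without the block 13 fell and 2 rose). Thbs1, thrombospondin 1, an activator of latent TGF-β, measured 85786, 115971 and 87920.0 normalized counts with scramble and 18473, 29172 and 31811 with siRNA. Thbs1 had a log2 fold change of −1.92 ± 0.17 (SE) with an adjusted p of 8.12e-06. Col11a1, a fibrillar collagen chain, measured 8920.1, 7494 and 8503 normalized counts with scramble and 921, 1107 and 887 with siRNA. For Col11a1 the log2 fold change was −3.10 ± 0.15 (SE), with an adjusted p of 1.80e-07. Fn1, fibronectin, an abundant message of these cells at a mean of 4622 TPM with scramble, measured 533499.9, 481983 and 425483 normalized counts with scramble and 236162, 241151 and 225010.1 with siRNA. Fn1 had a log2 fold change of −1.03 ± 0.09 (SE) with an adjusted p of 7.44e-06. Postn, the matricellular protein periostin, changed less (16154, 20713 and 28476 normalized counts with scramble and 13179.7, 14194 and 16637 with siRNA, log2 fold change −0.55 ± 0.11 (SE), adjusted p = 0.00152, 0.0270 without the block). Its groups overlapped, with the siRNA library numbered 3 above the scramble library numbered 1. Thbs4, thrombospondin 4, had a mean of 1.20 TPM with scramble (34.9, 54.6 and 62.6 normalized counts with scramble and 11.2, 15.4 and 8.13 with siRNA, log2 fold change −2.16 ± 0.33 (SE), adjusted p = 3.28e-04). Further log2 fold changes were −1.70 for Tnc, −1.56 for Ltbp2 and −1.44 for Loxl1 (adjusted p of at most 7.98e-04). The members that rose were the collagens Col3a1 and Col5a1, the latter with a log2 fold change of 0.47 (adjusted p = 0.00344) and its call lost when either scramble library or either siRNA library numbered 1 or 3 was left out.

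Genes at several steps of the TGF-β and BMP systems fell in these cells, to which no TGF-β was added. Of the ligands, receptors and carriers, 11 of 27 fell, 3 rose and the median log2 fold change was −0.38 (without the libraries numbered 3, 14 fell and 5 rose). Tgfb2, a TGF-β ligand, measured 5527, 4737 and 4156 normalized counts with scramble and 1744, 1632 and 1167 with siRNA. For Tgfb2 the log2 fold change was −1.68 ± 0.10 (SE), with an adjusted p of 5.39e-07. Ltbp1, which stores latent TGF-β in the matrix, measured 4472, 6214 and 3706 normalized counts with scramble and 1302, 1936 and 1097 with siRNA. Ltbp1 had a log2 fold change of −1.74 ± 0.12 (SE) with an adjusted p of 1.68e-06. Smad3, the signal transducer, moved the other way (2180.5, 2362 and 2748 normalized counts with scramble and 3401, 3283 and 5185 with siRNA, log2 fold change 0.69 ± 0.09 (SE), adjusted p = 1.47e-04), as did the follistatin-like Fstl1 (log2 fold change 0.61 ± 0.08 (SE), adjusted p = 1.34e-04) and the receptor Acvr2b (log2 fold change 1.17 ± 0.18 (SE), adjusted p = 3.24e-04). Of the TGF-β and SMAD targets, 20 of 33 fell, 3 rose and the median log2 fold change was −0.52 (without the block 11 fell and 0 rose). Nox4, a hydrogen peroxide-producing oxidase, measured 905, 925 and 728 normalized counts with scramble and 291, 388 and 276 with siRNA (log2 fold change −1.44 ± 0.21 (SE), adjusted p = 2.19e-04), whereas Timp1, an inhibitor of metalloproteinases, rose from 3335, 4433 and 6142 to 8047, 6799 and 10521 normalized counts (log2 fold change 0.88 ± 0.11 (SE), adjusted p = 5.86e-05, 0.0168 without the block). Of the BMP pathway and ID genes, 17 of 32 fell, 1 rose and the median log2 fold change was −0.76 (without the block 6 fell and 0 rose and without the libraries numbered 3, 19 fell and 2 rose). Bmp4 measured 3688, 2561 and 1874 normalized counts with scramble and 1107, 1160.1 and 782 with siRNA (log2 fold change −1.38 ± 0.16 (SE), adjusted p = 4.75e-05) and the inhibitor Smad6 6158, 3907 and 2629.7 normalized counts with scramble and 2127, 1558 and 1125 with siRNA. For Smad6 the log2 fold change was −1.38 ± 0.18 (SE), with an adjusted p of 8.47e-05. Both were lowest in the libraries numbered 3 of each group, and each siRNA library was lower than the scramble library of its number. Log2 fold changes of −2.28 for Bmp3 and −2.07 for Id4 (adjusted p of at most 2.90e-05; without the block 0.0201 for Id4) were wider still.

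The matrix genes did not all change in 1 direction. Of the fibrillar collagens, 5 of 11 fell, 2 rose and the median log2 fold change was −0.39. Col3a1, the main chain of type III collagen, measured 288657, 311142 and 291973 normalized counts with scramble and 502101, 486500.3 and 488803 with siRNA (log2 fold change 0.73 ± 0.12 (SE), adjusted p = 4.36e-04) and so rose from a mean of 5360.4 TPM. Col5a1, described with the myofibroblast markers, also rose. Among the chains that fell, log2 fold changes were −4.48 for Col24a1, −3.16 for Col27a1, −3.10 for Col11a1 and −1.33 for Col11a2 (adjusted p of at most 3.83e-04). Of the other collagens, 19 of 29 fell, 3 rose and the median log2 fold change was −0.99 (without the block 13 fell and 0 rose). The chains of type VI collagen, which assemble with each other, went apart. Col6a1 measured 32830.2, 31949 and 23941 normalized counts with scramble and 54222, 47942 and 45959.9 with siRNA (log2 fold change 0.76 ± 0.14 (SE), adjusted p = 0.00103, 0.0489 without the block) and Col6a2 24239, 22938 and 16031 normalized counts with scramble and 40078, 35279.6 and 34045 with siRNA. Col6a2 had a log2 fold change of 0.83 ± 0.14 (SE) with an adjusted p of 5.98e-04 and one of 0.0444 without the block. Col6a3 measured 5208, 6818 and 3933 normalized counts with scramble and 817, 1151 and 603 with siRNA (log2 fold change −2.65 ± 0.20 (SE), adjusted p = 2.10e-06), and Col6a6 933, 733 and 173 normalized counts with scramble and 29.2, 52.1 and 16.3 with siRNA. Col15a1, a basement membrane collagen of resting fibroblasts, measured 3371, 3461 and 3811 normalized counts with scramble and 613, 644 and 387 with siRNA. For Col15a1 the log2 fold change was −2.70 ± 0.24 (SE), with an adjusted p of 8.09e-06. Unlike the chains, the enzymes and chaperones that modify collagen had more increases than decreases, in that 4 of 24 fell, 12 rose and the median log2 fold change was 0.30 (without the block 2 fell and 4 rose). Serpinh1, the collagen chaperone HSP47, measured 50801, 54776 and 70158 normalized counts with scramble and 100599, 86791 and 121751 with siRNA (log2 fold change 0.81 ± 0.12 (SE), adjusted p = 1.87e-04), and Crtap, of the prolyl 3-hydroxylation complex, 2552, 2738 and 2877 normalized counts with scramble and 4611, 4253 and 4512 with siRNA. Crtap had a log2 fold change of 0.71 ± 0.07 (SE) with an adjusted p of 1.06e-05. Loxl1, the lysyl oxidase of elastic fibres, was among the decreases (14949, 13550.3 and 13096 normalized counts with scramble and 4827, 5056 and 5474 with siRNA, log2 fold change −1.44 ± 0.08 (SE), adjusted p = 3.16e-07).

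The remaining matrix lists tilted downward. Of the thrombospondins and matricellular proteins, 13 of 28 fell, 1 rose and the median log2 fold change was −0.45 (without the block 8 fell and 0 rose and without the libraries numbered 3, 13 fell and 2 rose), with log2 fold changes of −2.46 for Smoc2 and −1.34 for Fbln5 (adjusted p of at most 4.20e-06) and, as the gene that rose, of 0.34 for Sparc (adjusted p = 0.00164, 0.0122 without the block). Of the elastic fibre and microfibril genes, 12 of 16 fell, 2 rose and the median log2 fold change was −0.59 (without the block 6 fell and 2 rose). Eln, tropoelastin, measured 24359.9, 39932 and 10501 normalized counts with scramble and 10794, 17106 and 5796 with siRNA (log2 fold change −1.10 ± 0.17 (SE), adjusted p = 3.04e-04, 0.133 without the block), and its groups overlapped when the numbers were ignored. Mfap5, a microfibril glycoprotein, rose instead (1469, 1924 and 1378 normalized counts with scramble and 3514, 4033 and 2358 with siRNA, log2 fold change 1.04 ± 0.08 (SE), adjusted p = 2.65e-06). Of the laminins and basement membrane linkers, 9 of 20 fell, 3 rose and the median log2 fold change was −0.54 (without the block 5 fell and 1 rose), with −1.95 for Npnt, −1.75 for Ntn1 and −1.70 for Lamb1 (adjusted p of at most 1.06e-06) and, upward, 1.06 for Nid2 (adjusted p = 4.99e-05). Of the proteoglycans and hyaluronan genes, 12 of 35 fell, 5 rose and the median log2 fold change was −0.30 (without the block 8 fell and 4 rose). Has2, a hyaluronan synthase, measured 221, 330.1 and 289.9 normalized counts with scramble and 92.2, 108 and 51.8 with siRNA (log2 fold change −1.79 ± 0.26 (SE), adjusted p = 1.96e-04), and Sdc4, a heparan sulfate receptor of focal adhesions, 2279.6, 3306 and 3042 normalized counts with scramble and 6549, 6131 and 6999 with siRNA. For Sdc4 the log2 fold change was 1.20 ± 0.14 (SE), with an adjusted p of 4.83e-05. Of the metalloproteinases and their inhibitors, 12 of 35 fell, 3 rose and the median log2 fold change was −0.25 (without the block 7 fell and 2 rose), with −2.24 for Mmp16, −1.76 for Adamts12 and −1.29 for Timp2 (adjusted p of at most 1.32e-05) and 1.74 for Mmp15 and 0.80 for Adam9 (adjusted p of at most 3.13e-04). Of the plasminogen activation genes, 6 of 12 fell, 0 rose and the median log2 fold change was −0.42 (without the block 2 fell and 0 rose), led by the protease nexin Serpine2 (10369.8, 10973 and 9574 normalized counts with scramble and 3011, 2846 and 3164 with siRNA, log2 fold change −1.78 ± 0.07 (SE), adjusted p = 8.24e-08).

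Of the markers of resting fibroblasts, more fell than rose. Among them, 13 of 25 fell, 2 rose and the median log2 fold change was −0.53 (without the block 7 fell and 2 rose and without the libraries numbered 3, 14 fell and 6 rose), with log2 fold changes of −2.80 for Igfbp3, −2.46 for Smoc2, −2.07 for Htra3 and −1.45 for Gpx3 (adjusted p of at most 9.21e-05) and of 1.04 for Mfap5 and 0.50 for Dcn (adjusted p of at most 6.10e-04). Of the fibroblast identity markers used as a check of the label, 5 of 12 fell, 2 rose and the median log2 fold change was −0.22 (without the block 2 fell and 2 rose). Their summed level, mostly collagen, was 1344355 to 1461409 normalized counts in the scramble libraries and 1322747 to 1351687 in the siRNA libraries, ranges that overlap. Dcn, the collagen-binding decorin, rose (34116, 33988 and 38381 normalized counts with scramble and 49901, 51511 and 49458 with siRNA, log2 fold change 0.50 ± 0.09 (SE), adjusted p = 6.10e-04), and Thy1, a surface glycoprotein of fibroblasts, fell (577, 818 and 1559.9 normalized counts with scramble and 143, 219 and 285 with siRNA, log2 fold change −2.15 ± 0.21 (SE), adjusted p = 1.36e-05).

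Most genes of the cell cycle fell. Of the mitosis genes, 38 of 44 fell, 2 rose and the median log2 fold change was −1.21 (without the block 37 fell and 1 rose), and of the replication and S-phase genes, 28 of 46 fell, 3 rose and the median log2 fold change was −0.71. Ccna2, cyclin A2, measured 835, 803 and 1189 normalized counts with scramble and 392, 282 and 289 with siRNA. Ccna2 had a log2 fold change of −1.55 ± 0.14 (SE) with an adjusted p of 8.22e-06. Prc1, the spindle midzone protein, measured 1242, 1255 and 1852 normalized counts with scramble and 589, 459 and 359 with siRNA. For Prc1 the log2 fold change was −1.63 ± 0.19 (SE), with an adjusted p of 3.78e-05. Rrm2, the S-phase subunit of ribonucleotide reductase, measured 602, 562 and 941 normalized counts with scramble and 208, 141 and 159.7 with siRNA. Rrm2 had a log2 fold change of −2.04 ± 0.16 (SE) with an adjusted p of 2.78e-06. The scramble library numbered 3 held the highest value of each in its group, and the siRNA library numbered 1 the highest in its own. The median log2 ratio of the mitosis list within each number was −0.75, −1.14 and −1.78 for numbers 1, 2 and 3. Further log2 fold changes were −1.56 for Ckap2l, −1.52 for Aspm, −1.38 for Mcm6, −1.34 for Tk1 and −1.33 for Ccne1 (adjusted p of at most 8.98e-04). The exceptions that rose were Spc24 and Pttg1 among the mitosis genes (log2 fold changes 0.77 for Spc24 and 0.58 for Pttg1, adjusted p of at most 9.44e-04; without the block 0.0103 for Pttg1) and Rrm1, Rfc2 and E2f1 among the S-phase genes (log2 fold changes 0.37 for Rrm1, 0.41 for Rfc2 and 0.46 for E2f1, adjusted p of at most 0.00134; without the block 0.154 for Rrm1), the call of Rfc2 being lost without the siRNA library numbered 1.

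Promoters of 2 mitosis genes are shown with CCAAT, read by NF-Y, and TTTGAA, the core of the cell cycle homology region. Capitals mark CCAAT or TTTGAA on either strand of the 250 bases before the start, at chr2:129297213-129297462 (−) for Ckap2l, with 3 and 1 matches, and at chr1:139454523-139454772 (+) for Aspm, with 3 and 0.
Ckap2l: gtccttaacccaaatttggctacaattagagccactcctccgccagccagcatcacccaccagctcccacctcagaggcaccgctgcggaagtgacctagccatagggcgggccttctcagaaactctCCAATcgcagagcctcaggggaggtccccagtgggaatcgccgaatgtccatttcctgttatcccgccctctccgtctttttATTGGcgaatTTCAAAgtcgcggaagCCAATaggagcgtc
Aspm: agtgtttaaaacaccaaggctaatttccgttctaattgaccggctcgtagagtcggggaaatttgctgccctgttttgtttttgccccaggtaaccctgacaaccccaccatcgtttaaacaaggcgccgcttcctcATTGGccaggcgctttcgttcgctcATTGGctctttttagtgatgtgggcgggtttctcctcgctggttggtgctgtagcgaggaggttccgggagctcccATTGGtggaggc
CCAAT stood in 75.7% of 37 promoters of the mitosis list, 58.1% of 43 of the S-phase list and 34.8% of those of all genes tested, and TTTGAA in 35.1%, 16.3% and 11.6%. Over the promoters of all genes that fell the shares were 34.3% and 11.2%. The list shares describe the lists, and a part of either motif in the siRNA effect was not tested.

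The p53 targets and CDK inhibitors went both ways, in that 8 of 34 fell, 11 rose and the median log2 fold change was 0.11 (without the block 4 fell and 9 rose). Cdkn1a, the CDK inhibitor p21, measured 6013, 5290.3 and 7260.1 normalized counts with scramble and 17616, 16001 and 17295 with siRNA. For Cdkn1a the log2 fold change was 1.46 ± 0.11 (SE), with an adjusted p of 2.21e-06. Pmaip1, the BH3-only protein NOXA, measured 311, 356 and 357 normalized counts with scramble and 79.8, 75.8 and 79.9 with siRNA. Pmaip1 had a log2 fold change of −2.14 ± 0.18 (SE) with an adjusted p of 4.31e-06. Both are well-known p53 targets, and they changed in opposite directions. Others were 0.79 for Dusp11, 0.58 for Glb1 and 0.54 for Btg2 (adjusted p of at most 7.78e-05) and −0.78 for Cdkn2c and −0.58 for Sesn2 (adjusted p of at most 1.78e-04).

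Core histone genes that are transcribed in S phase fell with the cell cycle lists, in that 34 of 59 fell, 1 rose and the median log2 fold change was −0.81 (without the libraries numbered 3, 24 fell and 0 rose). Hist2h3c2 measured 627, 506 and 669 normalized counts with scramble and 282, 170.5 and 184 with siRNA (log2 fold change −1.52 ± 0.15 (SE), adjusted p = 1.32e-05), and Hist1h2af 169, 133 and 184 normalized counts with scramble and 55.1, 54.5 and 32.5 with siRNA. For Hist1h2af the log2 fold change was −1.83 ± 0.25 (SE), with an adjusted p of 1.46e-04. These genes are near-identical copies and single members are uncertain. Of the replacement histones, 3 of 9 fell, 0 rose and the median log2 fold change was −0.11. H3f3a, one of the genes of the variant H3.3, measured 5527, 5277 and 5354 normalized counts with scramble and 2677, 2916 and 2730.2 with siRNA (log2 fold change −0.96 ± 0.08 (SE), adjusted p = 3.10e-06), and Cenpa, the centromeric H3 variant, 418, 395 and 634 normalized counts with scramble and 246, 188 and 200.4 with siRNA. Cenpa had a log2 fold change of −1.17 ± 0.17 (SE) with an adjusted p of 1.87e-04.

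Other chromatin proteins changed gene by gene. Of the HMG and HP1 proteins, 5 of 12 fell, 2 rose and the median log2 fold change was −0.35. Hmga1, an AT-hook protein that competes with linker histones for DNA, measured 462, 396 and 575 normalized counts with scramble and 1544, 1467 and 1619 with siRNA. For Hmga1 the log2 fold change was 1.70 ± 0.08 (SE), with an adjusted p of 1.41e-07. The heterochromatin proteins parted, Cbx1 (HP1β) with 1281, 1482 and 1464 normalized counts with scramble and 554, 470.0 and 559 with siRNA (log2 fold change −1.41 ± 0.09 (SE), adjusted p = 8.13e-07) and Cbx5 (HP1α) with 5899.9, 5670.0 and 5827 normalized counts with scramble and 8676, 8074 and 7430.4 with siRNA. Cbx5 had a log2 fold change of 0.47 ± 0.05 (SE) with an adjusted p of 3.74e-05. Of the nuclear lamina genes, 3 of 14 fell, 5 rose and the median log2 fold change was 0.14 (without the libraries numbered 3, 3 fell and 3 rose), with 0.99 for Lbr and 0.65 for Lmna (adjusted p of at most 3.61e-05) and −1.01 for Tmpo, −0.92 for Syne1 and −0.68 for Lmnb2 (adjusted p of at most 9.30e-04). Of the DNA methylation enzymes, 7 of 13 fell, 0 rose and the median log2 fold change was −0.28, with −1.21 for Uhrf1, −0.97 for Tet1, −0.71 for Tet2 and −0.66 for Dnmt1 (adjusted p of at most 2.24e-04). Of the histone methyltransferases and demethylases, 13 of 43 fell, 6 rose and the median log2 fold change was −0.09 (without the block 10 fell and 3 rose). Carm1, an arginine methyltransferase, measured 2345, 2235 and 2227 normalized counts with scramble and 816, 849 and 842 with siRNA (log2 fold change −1.44 ± 0.06 (SE), adjusted p = 8.24e-08), and the polycomb enzyme Ezh2 625, 596 and 759 normalized counts with scramble and 406, 412 and 373 with siRNA. For Ezh2 the log2 fold change was −0.73 ± 0.10 (SE), with an adjusted p of 1.35e-04. Of the deacetylases and acetyltransferases, 6 of 25 fell, 3 rose and the median log2 fold change was −0.08 (without the block 3 fell and 2 rose and without the libraries numbered 3, 4 fell and 1 rose), with −0.66 for Crebbp, −0.50 for Kat2a and 0.50 for Sirt7 (adjusted p of at most 1.95e-04). Hdac1 differed little (2028, 2071 and 1932 normalized counts with scramble and 1844, 1726 and 1652 with siRNA, log2 fold change −0.21 ± 0.05 (SE), adjusted p = 0.00804, 0.0124 without the block), and its call was lost without any 1 of 5 of the 6 libraries, all but the siRNA library numbered 1.

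The subunits of RNA polymerase II moved both ways. Polr2a, the catalytic subunit of RNA polymerase II, measured 9124, 8712 and 6962 normalized counts with scramble and 5603, 5827 and 4590.0 with siRNA. Polr2a had a log2 fold change of −0.63 ± 0.06 (SE) with an adjusted p of 1.59e-05. Of the 12 subunits, 1 of 12 fell, 4 rose and the median log2 fold change was 0.18, the increases including Polr2k and Polr2e (log2 fold changes 0.78 for Polr2k and 0.57 for Polr2e, adjusted p of at most 1.83e-04). Polr2b (log2 fold change 0.20, adjusted p = 0.0127) and Polr2c (−0.14, adjusted p = 0.0615) did not pass.

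Genes of cholesterol synthesis, the enzymes and regulators that make sterol from acetyl-CoA, rose together. In this list 0 of 24 fell, 15 rose and the median log2 fold change was 0.91. Msmo1, the C4-methylsterol oxidase, measured 1138, 1067 and 2601 normalized counts with scramble and 5070.2, 5744 and 7812 with siRNA. For Msmo1 the log2 fold change was 2.01 ± 0.22 (SE), with an adjusted p of 2.54e-05. Nsdhl, which acts next in C4 demethylation, measured 504, 586 and 1077 normalized counts with scramble and 2397, 2507 and 3676 with siRNA. Nsdhl had a log2 fold change of 2.00 ± 0.23 (SE) with an adjusted p of 4.56e-05. Insig1, whose protein holds the SREBP regulators of the pathway back when sterol is plentiful, measured 2824, 2976 and 6983 normalized counts with scramble and 13906, 12703 and 14428 with siRNA. For Insig1 the log2 fold change was 1.73 ± 0.27 (SE), with an adjusted p of 3.83e-04. The groups did not overlap, but the scramble library numbered 3 stood well above the other scramble libraries. Mvd, the diphosphomevalonate decarboxylase, showed the same arrangement (204, 195 and 416 normalized counts with scramble and 851, 768 and 1351 with siRNA, log2 fold change 1.88 ± 0.23 (SE), adjusted p = 6.65e-05). Without the block 11 of the 24 rose, and with an offset for transcript length 13 rose. Without the 4 libraries numbered 3, an alternative chosen after seeing the data, 21 rose. The median log2 ratio within each number was 1.21, 1.12 and 0.65 for numbers 1, 2 and 3.

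Promoters of 2 genes of this list, which rose together, are shown with CCAAT on either strand in capitals, at chr8:64733579-64733828 (−) for Msmo1, with 3 matches, and at chrX:72918271-72918520 (+) for Nsdhl, with 2.
Msmo1: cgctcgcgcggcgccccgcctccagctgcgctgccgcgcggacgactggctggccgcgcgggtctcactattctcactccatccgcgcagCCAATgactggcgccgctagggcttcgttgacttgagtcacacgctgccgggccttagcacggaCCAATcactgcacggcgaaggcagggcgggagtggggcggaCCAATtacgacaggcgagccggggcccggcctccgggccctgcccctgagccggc
Nsdhl: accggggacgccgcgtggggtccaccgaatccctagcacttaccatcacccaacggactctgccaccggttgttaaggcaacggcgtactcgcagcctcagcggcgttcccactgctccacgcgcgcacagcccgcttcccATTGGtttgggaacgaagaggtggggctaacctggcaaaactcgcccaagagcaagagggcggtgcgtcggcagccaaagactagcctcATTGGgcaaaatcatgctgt
CCAAT stood in 84.2% of 19 promoters of the cholesterol list, against 35.6% of those of all genes that rose. The motif was frequent both in a list that rose and in lists that fell, and its part in the siRNA effect was not tested.

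Fatty acid genes moved partly with it, in that 4 of 28 fell, 9 rose and the median log2 fold change was 0.27 (without the block 4 fell and 5 rose). Scd2, a stearoyl-CoA desaturase, measured 20314, 23596 and 43467 normalized counts with scramble and 81024, 73441 and 86899 with siRNA (log2 fold change 1.50 ± 0.21 (SE), adjusted p = 1.61e-04), and Scd1 3869.7, 3960.0 and 11221 normalized counts with scramble and 13751, 12255 and 17513 with siRNA. Scd1 had a log2 fold change of 1.30 ± 0.24 (SE) with an adjusted p of 0.00110 and one of 0.0172 without the block. Elovl5, an elongase of polyunsaturated fatty acids, measured 682, 830.2 and 1008 normalized counts with scramble and 2169, 2199.5 and 2779 with siRNA. For Elovl5 the log2 fold change was 1.51 ± 0.13 (SE), with an adjusted p of 5.72e-06. Of genes for uptake and storage, Lpl, lipoprotein lipase, measured 12375, 14618 and 16088 normalized counts with scramble and 6362, 7135 and 7802 with siRNA (log2 fold change −1.01 ± 0.10 (SE), adjusted p = 1.40e-05), and Fabp4, a fatty acid carrier, fell as well (log2 fold change −1.34 ± 0.17 (SE), adjusted p = 7.11e-05).

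The share of genes that rose was 60.2% of the oxidative phosphorylation subunits, 61.5% of the proteasome subunits and 45.0% of the lysosome genes, against 17.4% of all genes. Among the fifth of genes with the highest mean normalized count it was 29.8%. For the cytosolic ribosomal proteins it was 13.8% and for glycolysis 4.76%. Of the oxidative phosphorylation subunits, 3 of 83 fell, 50 rose and the median log2 fold change was 0.33 (without the block 3 fell and 40 rose). Sdhc and Sdhd, the membrane anchors of succinate dehydrogenase, measured 1276, 1395 and 1378 normalized counts with scramble and 2417, 2182 and 2612 with siRNA (log2 fold change 0.83 ± 0.07 (SE), adjusted p = 4.83e-06) and 939.9, 1024 and 1027 normalized counts with scramble and 1633, 1603 and 1819 with siRNA. Sdhd had a log2 fold change of 0.76 ± 0.06 (SE) with an adjusted p of 2.78e-06. The exceptions included Cox6b2, a tissue-restricted isoform (125, 115 and 142 normalized counts with scramble and 20.2, 23.7 and 14.1 with siRNA, log2 fold change −2.77 ± 0.37 (SE), adjusted p = 1.10e-04), and Atp5a1 and Uqcrc2 (log2 fold changes −0.32 for Atp5a1 and −0.39 for Uqcrc2, adjusted p of at most 7.59e-04). Of the proteasome subunits, 1 of 39 fell, 24 rose and the median log2 fold change was 0.31 (without the block 0 fell and 21 rose), with Psmb7, a catalytic β subunit, at 1059.7, 1241 and 1248 normalized counts with scramble and 2586, 2293 and 2842 with siRNA (log2 fold change 1.12 ± 0.08 (SE), adjusted p = 1.37e-06) and log2 fold changes of 0.95 for Psmb10, 0.75 for Psmb2 and 0.66 for Psmb3 (adjusted p of at most 1.45e-05). Of the lysosome genes, 2 of 40 fell, 18 rose and the median log2 fold change was 0.22 (without the block 1 fell and 15 rose and without the libraries numbered 3, 4 fell and 16 rose), with 0.84 for Ctsc and 0.58 for Lamp1 (adjusted p of at most 9.94e-05) and −0.93 for Tpp1 (adjusted p = 6.04e-07). Of the cytosolic ribosomal proteins, 2 of 80 fell, 11 rose and the median log2 fold change was 0.16 (without the block 1 fell and 5 rose and without the libraries numbered 3, 4 fell and 4 rose), with Rps27l, a p53-induced paralogue, the widest (1091, 1214 and 1635 normalized counts with scramble and 2719, 2531 and 3269 with siRNA, log2 fold change 1.12 ± 0.12 (SE), adjusted p = 2.26e-05). Of the glycolysis genes, 6 of 21 fell, 1 rose and the median log2 fold change was −0.06, the decreases including the glucose transporter Slc2a1 (828, 962 and 915 normalized counts with scramble and 348, 393 and 317 with siRNA, log2 fold change −1.36 ± 0.10 (SE), adjusted p = 1.96e-06), Gapdh and Pkm (log2 fold changes −0.91 for Gapdh and −0.93 for Pkm, adjusted p of at most 2.12e-05).

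Stress genes were mixed. Of the antioxidant and NRF2 target genes, 4 of 32 fell, 12 rose and the median log2 fold change was 0.24 (without the block 4 fell and 6 rose). Cat, catalase, measured 2445, 2501 and 2422 normalized counts with scramble and 5959, 5964 and 7002 with siRNA (log2 fold change 1.36 ± 0.07 (SE), adjusted p = 3.16e-07), and Srxn1, sulfiredoxin, 667, 746 and 999 normalized counts with scramble and 2203, 1982 and 3917 with siRNA. For Srxn1 the log2 fold change was 1.72 ± 0.15 (SE), with an adjusted p of 6.35e-06. Others were 0.99 for Gclm and 1.29 for Sod3 (adjusted p of at most 2.90e-04; without the block 0.0244 for Sod3) and −1.17 for Prdx6 and −0.42 for Gpx4 (adjusted p of at most 3.49e-04). Of the unfolded protein response and chaperone genes, 3 of 26 fell, 6 rose and the median log2 fold change was 0.15. Ern1, the sensor IRE1α, measured 1249, 1342 and 1355 normalized counts with scramble and 2519, 2340.4 and 2519 with siRNA (log2 fold change 0.90 ± 0.06 (SE), adjusted p = 8.44e-07) and Edem1, which marks misfolded glycoproteins for disposal, 2915, 3027 and 3369 normalized counts with scramble and 6685, 6288 and 7111 with siRNA. Edem1 had a log2 fold change of 1.11 ± 0.06 (SE) with an adjusted p of 3.16e-07. Of the ATF4 targets, 5 of 26 fell, 6 rose and the median log2 fold change was 0.05 (without the block 1 fell and 1 rose), with 0.76 for Wars and 0.60 for Gars (adjusted p of at most 6.12e-05; without the block 0.0316 for Gars) and −0.83 for Slc7a1 and −0.70 for Vldlr (adjusted p of at most 4.40e-04; without the block 0.0103 for Slc7a1 and 0.0177 for Vldlr). The shares of this list, 19.2% lower and 23.1% higher, were near the 16.2% and 17.4% of all genes.

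In the lists of signalling outside the TGF-β family, more genes fell than rose. Over all genes tested 16.2% fell and 17.4% rose. Of the FGF, PDGF, VEGF and HGF genes, 22 of 41 fell, 1 rose and the median log2 fold change was −0.56 (without the block 11 fell and 0 rose and without the libraries numbered 3, 20 fell and 2 rose). Pdgfd, a PDGF ligand, measured 2239, 1894 and 1962 normalized counts with scramble and 742, 724 and 842 with siRNA (log2 fold change −1.40 ± 0.09 (SE), adjusted p = 1.02e-06), and Angpt1, the ligand of the Tie2 receptor, 933, 846 and 603 normalized counts with scramble and 292, 298 and 325 with siRNA. For Angpt1 the log2 fold change was −1.34 ± 0.14 (SE), with an adjusted p of 2.64e-05. Of the IGF axis, 9 of 17 fell, 1 rose and the median log2 fold change was −1.19 (without the block 5 fell and 1 rose). Igfbp3, the main IGF carrier, measured 3797, 3677 and 3383 normalized counts with scramble and 433, 781 and 427 with siRNA (log2 fold change −2.80 ± 0.22 (SE), adjusted p = 2.89e-06), Stc2, an inhibitor of the IGFBP protease PAPP-A, 1565, 1591 and 1417 normalized counts with scramble and 343, 420.2 and 470.3 with siRNA (log2 fold change −1.87 ± 0.19 (SE), adjusted p = 1.88e-05), and the insulin receptor gene Insr rose (2047, 2139 and 1987 normalized counts with scramble and 3366, 3624 and 3541 with siRNA, log2 fold change 0.77 ± 0.05 (SE), adjusted p = 7.49e-07). Of the endothelin, angiotensin and natriuretic peptide genes, 10 of 20 fell, 2 rose and the median log2 fold change was −1.30 (without the block 3 fell and 1 rose and without the libraries numbered 3, 10 fell and 1 rose). Npr3, the clearance receptor of natriuretic peptides, measured 14429, 13478 and 8804 normalized counts with scramble and 3317, 3489 and 2852 with siRNA (log2 fold change −1.90 ± 0.17 (SE), adjusted p = 8.09e-06), and Ece1, which makes endothelin, 4190.0, 4477 and 4503 normalized counts with scramble and 10345, 9346 and 10973 with siRNA. Ece1 had a log2 fold change of 1.22 ± 0.12 (SE) with an adjusted p of 1.24e-05. The receptors Ednra, Agtr1a and Agtr2 fell only in the paired fit (log2 fold changes −2.38 for Ednra, −1.98 for Agtr1a and −2.57 for Agtr2, adjusted p of at most 2.55e-04; without the block 0.0282 for Ednra, 0.117 for Agtr1a and 0.0805 for Agtr2).

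Of the WNT pathway genes, 19 of 48 fell, 4 rose and the median log2 fold change was −0.34 (without the block 4 fell and 3 rose). Sfrp2, a secreted WNT modulator, measured 24869.6, 17575 and 7451 normalized counts with scramble and 4598, 3852 and 1462 with siRNA (log2 fold change −2.33 ± 0.15 (SE), adjusted p = 1.06e-06, 0.0204 without the block), and the library numbered 3 was the lowest of both groups. Axin2, a negative feedback target of β-catenin, rose from a mean of 1.87 TPM (79.5, 80.7 and 35.6 normalized counts with scramble and 175, 204 and 329.8 with siRNA, log2 fold change 1.87 ± 0.31 (SE), adjusted p = 5.48e-04). Wnt5b, a ligand, had a log2 fold change of −1.65 (adjusted p = 2.59e-04) and Ctnnb1, β-catenin, one of 0.38 (adjusted p = 3.34e-04). Of the Notch genes, 8 of 21 fell, 1 rose and the median log2 fold change was −0.35, with −0.97 for Maml1, −0.90 for Hes1, −0.80 for Heyl and −1.22 for Notch3 (adjusted p of at most 0.00136; without the block 0.0125 for Notch3). Of the immediate early and AP-1 genes, 9 of 33 fell, 4 rose and the median log2 fold change was −0.25, with −0.96 for Spry1 and −0.83 for Egr1 (adjusted p of at most 1.86e-05) and 0.59 for Junb and 0.54 for Btg2 (adjusted p of at most 2.65e-04). Of the Krüppel-like factors, 3 of 15 fell, 1 rose and the median log2 fold change was −0.20 (without the block 2 fell and 0 rose and without the libraries numbered 3, 3 fell and 2 rose), with −1.49 for Klf12 and −1.24 for Klf15 (adjusted p of at most 2.84e-04). Of the clock genes, 8 of 20 fell, 2 rose and the median log2 fold change was −0.50 (without the block 8 fell and 1 rose). Per2, a repressor of the clock, measured 368, 386 and 317 normalized counts with scramble and 96.7, 93.5 and 95.4 with siRNA (log2 fold change −1.93 ± 0.24 (SE), adjusted p = 6.89e-05) and its activator partner Arntl (BMAL1) 453, 529.9 and 392 normalized counts with scramble and 809, 865 and 751 with siRNA. For Arntl the log2 fold change was 0.83 ± 0.09 (SE), with an adjusted p of 3.23e-05. Clock and the output factor Dbp fell (log2 fold changes −0.96 for Clock and −1.47 for Dbp, adjusted p of at most 1.29e-05).

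The share of genes that fell was 42.9% of the complement genes and 28.6% of the interferon-stimulated genes, against 16.2% of all genes. It was 14.3% for chemokines and 15.2% for cytokines. The share that rose was 3.57% to 6.06% in these 4 lists, against 17.4% of all genes. Of the interferon-stimulated genes, 14 of 49 fell, 2 rose and the median log2 fold change was −0.37 (without the block 4 fell and 2 rose). Ifit2 measured 1738, 1451 and 1512 normalized counts with scramble and 936, 764 and 626 with siRNA (log2 fold change −1.03 ± 0.14 (SE), adjusted p = 1.18e-04), Ifi44 had a log2 fold change of −1.87 (adjusted p = 1.78e-04, 0.0283 without the block), and Irf1 and Ifi27 rose (log2 fold changes 0.72 for Irf1 and 1.00 for Ifi27, adjusted p of at most 5.60e-05). Of the RNA interference and double-stranded RNA sensor genes, 4 of 21 fell, 1 rose and the median log2 fold change was −0.04 (without the block 2 fell and 1 rose), with −0.97 for Tnrc6c and 0.49 for Prkra (adjusted p of at most 8.29e-05). Of the chemokines, 4 of 28 fell, 1 rose and the median log2 fold change was −0.53 (without the libraries numbered 3, 9 fell and 2 rose). Cxcl12, the stromal chemokine of CXCR4, measured 16067, 30969 and 19779.6 normalized counts with scramble and 3701, 6954 and 5557 with siRNA (log2 fold change −2.03 ± 0.12 (SE), adjusted p = 6.86e-07), and Cxcl5, a neutrophil chemokine, 2879, 3418 and 4135 normalized counts with scramble and 425, 523 and 332 with siRNA. Cxcl5 had a log2 fold change of −3.11 ± 0.40 (SE) with an adjusted p of 8.78e-05. Of the cytokines and NF-κB targets, 5 of 33 fell, 2 rose and the median log2 fold change was −0.13 (without the block 1 fell and 2 rose and without the libraries numbered 3, 6 fell and 6 rose), with Tnfrsf11b, osteoprotegerin, lower (1319, 1098 and 1215 normalized counts with scramble and 451, 352 and 563 with siRNA, log2 fold change −1.43 ± 0.10 (SE), adjusted p = 1.19e-06) and 0.66 for Tnfaip2 and 0.57 for Nfkb2 (adjusted p of at most 2.81e-04). Of the complement genes, 9 of 21 fell, 1 rose and the median log2 fold change was −0.22 (without the block 2 fell and 0 rose and without the libraries numbered 3, 8 fell and 0 rose), with the lipid-binding Clu at 8562, 6994 and 5343 normalized counts with scramble and 2356, 2302 and 1613 with siRNA. For Clu the log2 fold change was −1.73 ± 0.10 (SE), with an adjusted p of 5.08e-07.

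Of gene clusters that are silenced in many cells, 7.69% of the Hox genes and 6.67% of the germline genes were called, against 33.6% of all genes. In the lowest of 5 classes of mean normalized count, 0.305% of genes rose and 0.86% fell, against 29.8% and 25.3% in the highest. Whether low counts account for the low shares of the Hox and germline genes was not tested. Of the protocadherins 16.7% fell, against 16.2% of all genes, and of the imprinted genes 41.7% were called. Of the Hox genes, 1 of 26 fell, 1 rose and the median log2 fold change was 0.04 (without the block 1 fell and 0 rose), and of the germline genes, 0 of 15 fell, 1 rose and the median log2 fold change was −0.24. Of the clustered protocadherins, 9 of 54 fell, 0 rose and the median log2 fold change was −0.28, with Pcdhgc5 at 1755, 2079.9 and 2216 normalized counts with scramble and 545, 522 and 542 with siRNA (log2 fold change −1.91 ± 0.08 (SE), adjusted p = 8.24e-08) and log2 fold changes of −1.25 for Pcdhga7, −1.04 for Pcdhgc4 and −0.87 for Pcdhga3 (adjusted p of at most 4.50e-04). Of the imprinted genes, 7 of 36 fell, 8 rose and the median log2 fold change was −0.19 (without the block 5 fell and 5 rose), with 0.88 for Tssc4, 0.66 for Cd81 and 0.57 for Sgce (adjusted p of at most 6.27e-04) and −1.94 for Plagl1 and −1.02 for Impact (adjusted p of at most 1.25e-04). Single γ-protocadherin genes share exons, so counts may have been split among them.

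Markers of other cells were present at different levels. The summed macrophage markers were 29152 to 32383 normalized counts in the scramble libraries and 27133 to 28884 in the siRNA libraries, and 3 of 20 fell, 3 rose and the median log2 fold change was 0.10. These summed levels did not overlap. The macrophage genes that fell were Lyz2, C1qb and Mertk (log2 fold changes −0.43 for Lyz2, −0.72 for C1qb and −0.62 for Mertk, adjusted p of at most 0.00464; without the block 0.0224 for Lyz2), and C1qc and Itgam rose (log2 fold changes 0.33 for C1qc and 0.67 for Itgam, adjusted p of at most 0.00707; without the block 0.0429 for C1qc). The call of Lyz2 was lost when the scramble library numbered 2 or 3 or the siRNA library numbered 1 or 3 was left out, and that of C1qc without any 1 of 5 of the 6 libraries, all but the siRNA library numbered 1. Adgre1, which encodes F4/80, rose as well (1171, 906 and 732 normalized counts with scramble and 1937, 1668 and 1637 with siRNA, log2 fold change 0.92 ± 0.11 (SE), adjusted p = 5.68e-05). Endothelial markers summed to 2972 to 4358 and 2082 to 2571, and 3 of 15 fell, 0 rose and the median log2 fold change was −0.03, led by Tek, the angiopoietin receptor (2106, 1632 and 1454 normalized counts with scramble and 515, 460.5 and 332 with siRNA, log2 fold change −2.00 ± 0.11 (SE), adjusted p = 3.16e-07). Epicardial and mesothelial markers summed to 5597 to 6614 and 2967 to 3882, and 1 of 12 fell, 0 rose and the median log2 fold change was 0.01 (without the libraries numbered 3, 1 fell and 1 rose), the call being Aldh1a2, a retinoic acid-making enzyme (4413, 4695 and 3293 normalized counts with scramble and 669, 874 and 319 with siRNA, log2 fold change −2.82 ± 0.19 (SE), adjusted p = 1.34e-06). Of the cardiomyocyte markers, 3 of 13 fell, 0 rose and the median log2 fold change was −1.44. Schwann cell markers summed to 819 to 897 and 782 to 859, and 0 of 6 fell, 0 rose and the median log2 fold change was −0.88. Lymphocyte markers summed to 30.7 to 68.6 and 37.1 to 73.4, and 0 of 5 fell, 0 rose and the median log2 fold change was −0.36. Of the Y-linked genes, 0 of 4 fell, 0 rose and the median log2 fold change was 0.09.

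**Figure D3:**
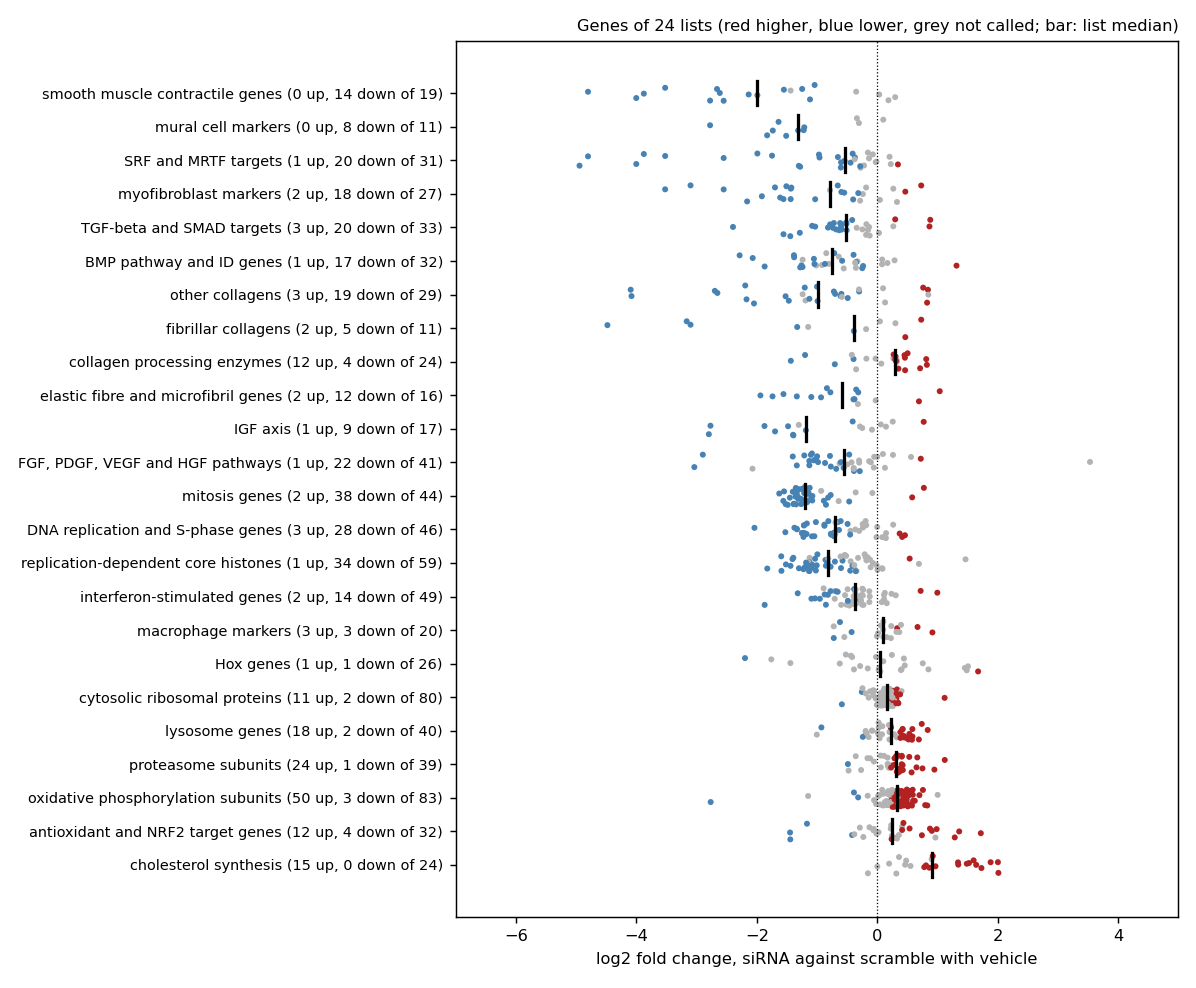
Log2 fold change of siRNA against scramble with vehicle (horizontal axis) of each tested gene in 24 of the lists (rows), red where called higher, blue where called lower and grey otherwise, with a black bar at the list's median and a dotted line at the median of all genes. The contractile list has its bar at −1.99 and the mitosis list at −1.21, and the cholesterol list is farthest to the right at 0.91.

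Calls were unequal over gene properties. In 5 classes of mean normalized count, from low to high, the share called higher was 0.305%, 6.32%, 21.1%, 29.5% and 29.8%. The share called lower was 0.86%, 12.2%, 19.7%, 22.7% and 25.3% in the same classes. In 5 classes of effective transcript length, the share of genes called lower climbed from 4.60% to 11.8%, 16.1%, 20.1% and 28.3% from short to long, and the share called higher was 14.4%, 21.0%, 19.9%, 18.6% and 13.1%. The median log2 fold change went from 0.11 in the shortest class to −0.18 in the longest, and from 0.09 to −0.19 with an offset for transcript length. Of 16043 protein-coding genes 19.4% rose and 18.0% fell, and of 1934 pseudogenes 24 rose and 24 fell. On the X chromosome 13.0% of 639 genes rose and 21.9% fell.

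**Figure D4:**
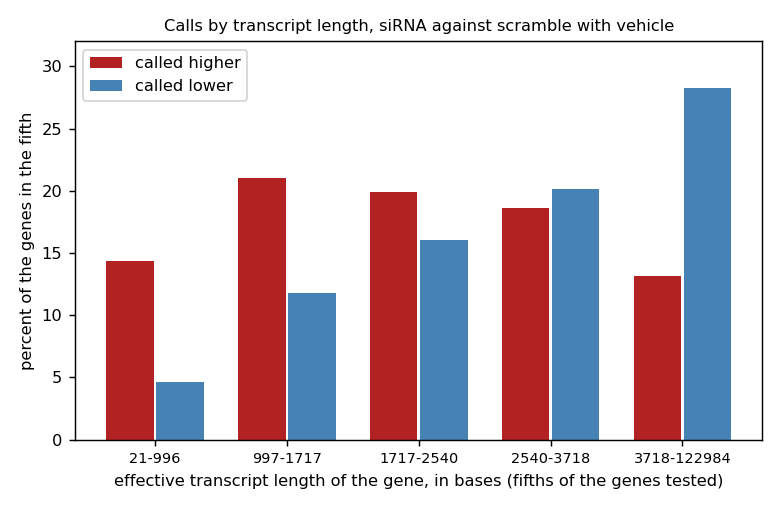
Percent of genes called higher (red) and lower (blue) with the siRNA in each of 5 equal classes of the genes tested by effective transcript length in bases. The blue bars climb from 4.60% in the shortest class to 28.3% in the longest, and the red bars are highest, at 21.0%, in the second.

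The same siRNA contrast was made in the 6 libraries with TGF-β, which share no library with the vehicle comparison. There 3179 genes rose and 2879 fell, 33.6% of those tested (17.6% and 16.0%). Of the genes called with vehicle, 2318 that rose (73.8%, and 72.9% of the TGF-β list) and 2148 that fell (73.7%, and 74.6%) were called in the same direction with TGF-β, and 1 gene that rose and 20 that fell were called in the opposite direction. The effects themselves were tested against each other in an interaction term. For 118 genes (0.655%) they differed, 74 with a more positive (0.41%) and 44 with a more negative effect under TGF-β (0.244%), but this count was 8 without the block, 0 without the libraries numbered 1 or those numbered 2, and 395 without those numbered 3. At an unadjusted p under 0.05 there were 3308.

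Among the genes with a different effect, Syn2, a synaptic vesicle protein, fell with vehicle (142, 128 and 138 normalized counts with scramble and 45.0, 53.3 and 29.6 with siRNA, log2 fold change −1.70 ± 0.22 (SE), adjusted p = 8.16e-05) and rose with TGF-β (log2 fold change 1.68). Robo2, a guidance receptor, also did (log2 fold changes −1.50 with vehicle and 1.40 with TGF-β). Tagln fell less with TGF-β (−1.48) than with vehicle (−3.52), and so did Thbs1 (−0.31 and −1.92) and Ccn2 (−0.14 and −1.08). Mcam, an adhesion molecule of mural cells, fell more with TGF-β (−3.45) than with vehicle (−1.64). Acta2 had log2 fold changes of −1.80 with TGF-β and −2.55 with vehicle, and the interaction was not called (adjusted p = 0.0296). The mitosis list had a median of −2.06 with TGF-β and −1.21 with vehicle, with 0 of 44 genes called in the interaction, and the cholesterol list one of 0.21 and 0.91, also with 0 of 24. The replication and S-phase list had a median of −1.55 with TGF-β and −0.71 with vehicle. In that list 10 of 46 genes were called in the interaction, against 0.655% of all genes.

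**Figure D5:**
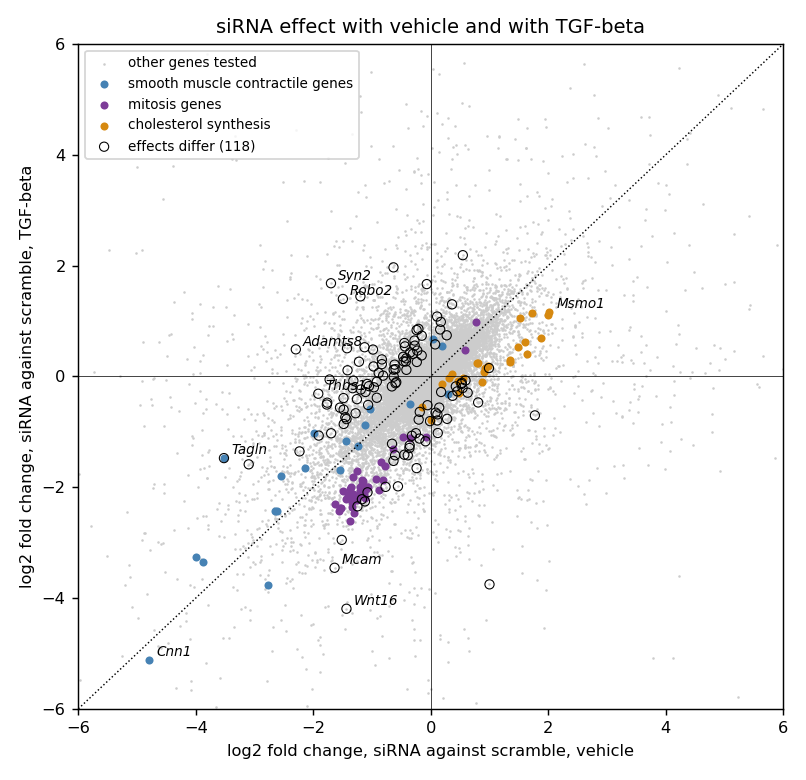
Log2 fold change of siRNA against scramble with TGF-β (vertical axis) against that with vehicle (horizontal axis), 1 point a gene, with 55 genes outside the axes not drawn. The contractile, mitosis and cholesterol lists are coloured, rings mark the 118 genes whose effects differ and the dotted line marks equal effects. Most coloured points lie in the quadrants of equal sign, the mitosis genes lower with TGF-β than with vehicle and Msmo1 higher with vehicle (2.01) than with TGF-β.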

How the data were processed

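RNA depleted of ribosomal RNA was sequenced from 12 cultures of adult mouse cardiac fibroblasts, of which the 6 with vehicle are compared here. The authors quantified each library with Salmon on an mm10 index built from Ensembl and deposited estimated counts, TPM values and effective lengths per transcript, with replicates not pooled. The submitters' processing notes also name DESeq2. What a replicate number marks is not given in the sources used here.

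Of 117135 transcripts, 115973 matched GENCODE annotation of GRCm38 and held 99.5 to 99.6% of the counts. The estimated counts, as deposited, were summed per gene and rounded, and genes with a total of at least 10 counts over the 12 libraries were kept. The main test was edgeR 4.0.16 (R 4.3.3), quasi-likelihood with TMM normalization, fitted to all 12 libraries with group and replicate number as terms, and Benjamini-Hochberg adjustment over 18028 genes at 0.01. The standard error is the log2 fold change divided by the square root of F. TPM values, as deposited by the authors, were summed per gene for levels between genes. The model was also run on counts simulated from its own fit with the replicate effects kept. Such counts cannot test whether the numbers pair the real libraries. For 17 of 18 pairs of same-numbered libraries the deviations from the group means correlated at over 0.1 (0.1749 to 0.5931), and for the scramble and siRNA vehicle libraries numbered 1 at 0.0802. Pairs with different numbers ranged from −0.5591 to 0.2888. The scramble vehicle library numbered 1 correlated more with the siRNA vehicle library numbered 2 (0.1831) than with that of its own number. By these correlations the numbers pair the libraries only in part, and the pair that falls short belongs to the vehicle comparison. The summed Y-linked level was lower in the libraries numbered 1 of the TGF-β groups as well. It was 3161 with scramble and 3469 with siRNA, against 4929 to 5235 in the TGF-β libraries numbered 2 and 3. Named genes that need the block are given with their adjusted p without it. List counts without the block are given for some lists only. P-values measure the spread between these libraries.

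The comparison and its 70 gene lists were chosen with earlier results of these data known. Genes named are H1f0, the 20 widest called changes in each direction without overlap, up to 4 called members per list and direction (mean of at least 100 normalized counts in the higher group), genes the study names, and the 5 widest interactions in each direction. Provisional symbols were left out of the widest changes. Some genes under this rule are not reported here. Promoters, 250 bases before the start, are from RefSeq (GRCm38.p6) for 12409 genes, searched on both strands for the CArG box and the other motifs given with them. Alternatives were no block, the 6 vehicle libraries alone, RLE factors, TMM without the most abundant genes, filterByExpr, no filter, DESeq2 1.42.0, limma-voom (limma 3.58.1), thinning to the lowest library total, an offset for transcript length, leaving out each library and, chosen after seeing the data, leaving out all libraries of 1 number.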

Additional observations from a re-analysis of the deposited data

Results flagged for a closer look

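The difference between the siRNA effect with TGF-β and that with vehicle was tested as an interaction term (edgeR quasi-likelihood, adjusted p under 0.01) and passed for 118 genes. Values are the log2 fold change with TGF-β less that with vehicle. Among the genes named in the text, the difference was positive for Syn2 (3.38), Robo2 (2.89), Tagln (2.05), Thbs1 (1.60), Col11a1 (1.51), Adamts12 (1.29), Egr1 (1.14), Klf12 (1.10), Ccn2 (0.95), Pcdhgc5 (0.84) and Loxl1 (0.66). It was negative for Mcam (−1.82), Hist2h3c2 (−1.44), Lbr (−0.84) and Dnmt1 (−0.56). Syn2 and Robo2 changed in opposite directions in the 2 conditions. For Tagln, Thbs1, Col11a1, Adamts12, Klf12, Ccn2, Pcdhgc5 and Loxl1, all lower with the siRNA and vehicle, the decrease was smaller with TGF-β. The number of such genes changed with the pairing of the libraries and with single replicate numbers.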

How the results depend on the processing

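With vehicle, all alternatives planned kept the counts of 3139 genes higher and 2915 lower within 1.5 times. Leaving out 1 vehicle library gave 2379 to 2658 higher and 2350 to 2585 lower, and 269 to 377 higher and 912 to 979 lower by at least 2-fold. Leaving out all 4 libraries of 1 number, an alternative chosen after seeing the data, gave 1674 higher and 1821 lower without number 1, 1708 and 1724 without number 2, and 2689 and 2812 without number 3, with fewer libraries in each fit. RLE factors gave 2967 higher and 3093 lower, DESeq2 3056 and 3221, and an offset for transcript length 2170 and 2407. With TGF-β the offset gave 2082 genes higher against 3179. Leaving out single libraries was not run for the siRNA effect with TGF-β.

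The fit without the replicate block gave 2421 genes higher and 2024 lower with vehicle, and of the 256 called genes named in the text 33 no longer passed. Without the block, 8 interactions passed rather than 118.

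The interaction count was 590 with DESeq2, 199 with no filter, 44 with the length offset, 0 without number 1 and 0 without number 2 (2094 and 2000 at an unadjusted p under 0.05), 395 without number 3, and 11 (without the scramble TGF-β library numbered 2) to 191 (without the scramble vehicle library numbered 3) when single libraries were left out. The cause was not tested. No gene named in the text changed direction under an alternative. Of 48 lists with a median log2 fold change of at least 0.2 either way, 1 changed sign under an alternative. Of all 70 lists 9 did, among them the actins and actin regulators (0.07, and −0.06 without the libraries numbered 3).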
